A study of Mus musculus with 18 samples.

Results

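The comparison described here is that of dendritic cells (DCs) lacking cytosolic phospholipase A2 (cPLA2 KO) with wild-type DCs (cPLA2 WT) after both had been confined. It rests on 3 confined cPLA2 KO and 3 confined cPLA2 WT libraries of a bulk RNA-seq series of 18 libraries in 6 groups, and on every gene that reached 10 normalized counts in 3 or more of the 6 confined libraries. Of 62197 genes in the deposited table, 16299 met this minimum, and 3116 of these carry no symbol. The series asks how a change of cell shape affects DCs, and the remaining groups are nonconfined cells and cells treated with lipopolysaccharide (LPS) of both genotypes. Bone marrow cells were grown for 10 days with granulocyte-macrophage colony-stimulating factor, and the immature DCs were pressed under a ceiling at a height of 3 µm and collected 4 h later. The protocol text of every sample, confined ones included, also mentions LPS, but the titles and treatment entries name it only for the LPS groups, which was followed here. The cPLA2 KO mice carried a conditional allele of Pla2g4a and Itgax-cre, whose promoter is that of CD11c, on a C57BL/6 background. Cells that do not activate this promoter are expected to keep the gene, and the methods describe young adult mice of either sex with littermates or age-matched animals as controls. A legend of the study calls the libraries biological replicates, but the labels do not say whether they came from separate cultures or animals, so that the p-values measure the spread between these libraries.

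cPLA2, encoded by Pla2g4a, releases arachidonic acid from membranes, including the nuclear envelope, to which it binds when that envelope is stretched. Cyclooxygenases, such as the one encoded by Ptgs2, and terminal synthases turn arachidonic acid into prostaglandins, while lipoxygenases turn it into leukotrienes and related lipids. DCs that mature acquire CCR7, the receptor that guides them to lymph nodes, together with co-stimulatory molecules, cytokines and chemokines, and the transcription factors NF-kB, STAT and IRF control many of these genes.

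The label of the genotype was examined first. The 3 confined cPLA2 WT libraries held 1369, 1430 and 1321 normalized counts of Pla2g4a, which is 1373 ± 54.9 (SD, n = 3). The 3 confined cPLA2 KO libraries held 923, 871 and 919.5, or 904 ± 28.8 (SD, n = 3). The groups did not overlap, and the log2 fold change, given throughout as cPLA2 KO minus cPLA2 WT on the log2(normalized count + 1) scale, was -0.60 ± 0.06 (SE; limma, adjusted p = 4.92e-07). A count over the whole gene does not show whether the part removed by Cre is missing from the remaining transcripts, so that this value does not test the excision. Itgax, the gene of CD11c, held 4626 ± 38.6 normalized counts in cPLA2 WT and 4316 ± 184 in cPLA2 KO libraries (SD, n = 3), with a log2 fold change of -0.10 (adjusted p = 0.0718) that turned to 0.05 when the libraries were scaled to the same total.

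The libraries held between 33027230 and 45769637 reads on genes, and the biological coefficient of variation was 0.0523 in cPLA2 WT and 0.0628 in cPLA2 KO. Markers of DC identity were abundant in both genotypes, with a summed level over 18 genes of 452700 to 484500 normalized counts in cPLA2 WT and 444300 to 461700 in cPLA2 KO libraries. Marker genes of other cells were present too. The sum over 18 late neutrophil granule genes was 285000 to 301300 in cPLA2 WT and 534200 to 544800 in cPLA2 KO, and the sum over 17 macrophage genes was 314700 to 331900 and 372100 to 384900. Of the macrophage genes, Vsig4 was at 0 in all confined libraries, and Cd163, Folr2 and Timd4 were at 0 in the 3 cPLA2 KO libraries. Genes of the Y chromosome were at or near 0 in cPLA2 WT, with sums of 1.72 to 2.37, and at 1789 to 1868 in cPLA2 KO. Xist, which is transcribed from the inactive X chromosome, was at 22734 to 33482 in cPLA2 WT and 16980 to 24835 in cPLA2 KO. Every confined cPLA2 KO library thus held both Xist and Y chromosome transcripts, while cPLA2 WT libraries held Xist with Y chromosome genes near 0. Whether a library pooled donors of both sexes was not tested. Genotype and the sex make-up of the donors therefore cannot be told apart in this comparison, nor can genotype and any other difference between the donors. In bulk samples, fewer cells of a type and less RNA per cell cannot be told apart either.

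In confined cells, 1212 genes were lower in cPLA2 KO, which is 7.44% of the genes tested, and 406 were higher, which is 2.49% (limma, with an adjusted p under 0.05 and a log2 fold change beyond 1 or -1). The median log2 fold change of the lower genes was -1.70, and 455 were below -2, 205 below -3 and 34 below -5. The higher genes had a median of 1.33, with 65 above 2, 26 above 3 and 13 above 5. Without the limit on the fold change, 3812 genes (23.4%) were lower and 3586 (22.0%) higher. The 3 cPLA2 KO libraries lay below the 3 cPLA2 WT libraries in 4271 genes (26.2%) and above them in 4399 (27.0%). The median over all genes was 0.04. When the libraries were scaled to the same total of reads, this median moved to 0.19 and the split became 1003 lower and 643 higher, so that 39.1% of the calls were higher and not 25.1%. Differences of that size are therefore read against the median below.

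**Figure D1:**
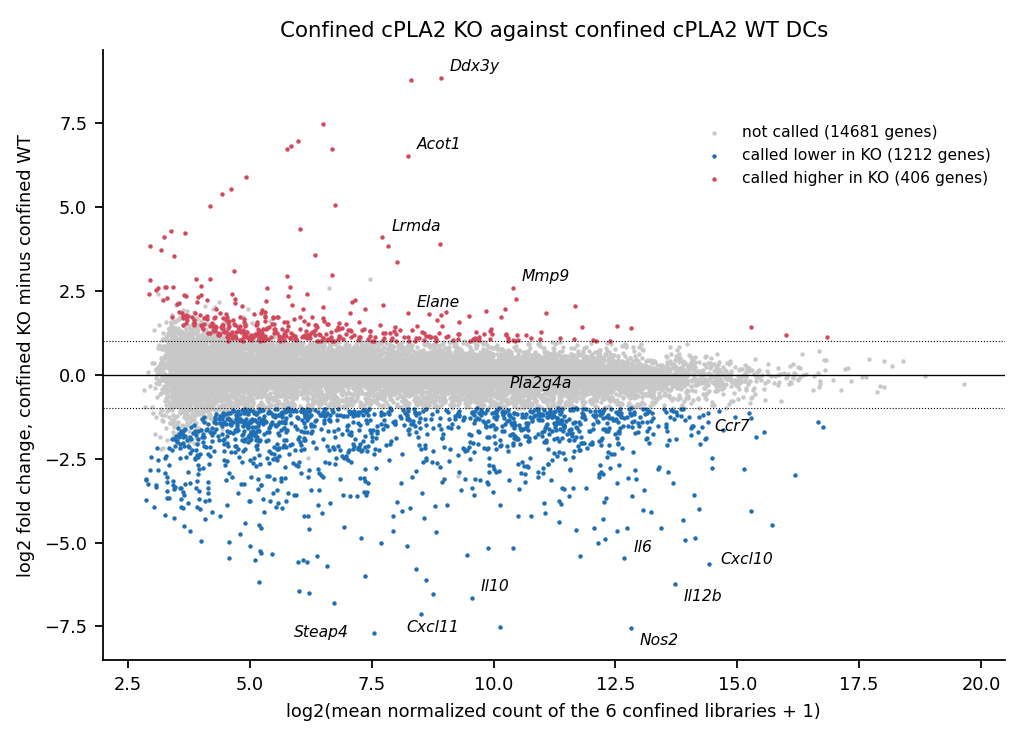
Log2 fold change of each of the 16299 genes tested (y axis, confined cPLA2 KO minus confined cPLA2 WT) against log2 of the mean normalized count of the 6 confined libraries plus 1 (x axis), with dotted lines at -1 and 1. The 1212 lower genes spread far below the line at -1, as Nos2 at -7.54 does, while most of the 406 higher genes lie close to the line at 1.

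Among genes with a mean of 100 normalized counts or more, the largest decreases fell on Steap4, a metalloreductase of the plasma membrane, and on Nos2, the inducible nitric oxide synthase. Steap4 held 333, 416 and 364 normalized counts in cPLA2 WT and 0, 1.07 and 1.82 in cPLA2 KO. With 3 reads in all 3 cPLA2 KO libraries against 1137 in cPLA2 WT, the ratio was 369 (95% counting interval 126 to 1790). Nos2 held 14692, 13855 and 14383 normalized counts in cPLA2 WT and 77.7, 78.9 and 72 in cPLA2 KO. Every cPLA2 WT library was thus far above every cPLA2 KO library, with a log2 fold change of -7.54 ± 0.06 (SE, adjusted p = 9.7e-20). The nonconfined means of Nos2 were 19.5 in cPLA2 WT and 18.5 in cPLA2 KO. Apart from the chemokine and cytokine genes given below, the next largest decreases were those of U90926 (-7.13), Gm14137 (-6.80), the plasminogen activator gene Plat (-6.53), the hyaluronan synthase gene Has1 (-6.00), Hamp, which encodes the iron-regulating hormone hepcidin (-5.79), and Fgf23, which encodes a phosphate-regulating hormone (-5.37). Gm14137 was read in only 1 of the 3 cPLA2 KO libraries, at 5.47 normalized counts, against 206 to 208 in cPLA2 WT.

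Nos2 was accompanied by other genes of arginine and itaconate metabolism. Of 15 genes of this list tested, 8 were lower, 1 was higher, and the median log2 fold change was -1.05. Acod1, which makes the antimicrobial metabolite itaconate, held 65492, 62048 and 62621 normalized counts in cPLA2 WT and 9227, 8540 and 9221 in cPLA2 KO (log2 fold change -2.82 ± 0.04, SE, adjusted p = 5.44e-17). Its groups were separate, although the cPLA2 KO level stayed above the nonconfined means of 3177 and 3108.

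Many chemokine genes were lower in cPLA2 KO. Of 10 CXC chemokine genes tested, 8 were lower and none was higher by the call (median -2.25). Of 14 CC, XC and CX3C chemokine genes, 5 were lower and none higher (median -0.79). Cxcl10 and Cxcl11 encode ligands of CXCR3 that attract activated T cells. Cxcl10 held 44120, 42419 and 42869 normalized counts in cPLA2 WT and 864, 899 and 841 in cPLA2 KO, with a log2 fold change of -5.63 ± 0.04 (SE, adjusted p = 4.96e-20). Cxcl11 held 2356, 2163 and 2184 against 8.63, 17.1 and 9.11 (-7.53 ± 0.20). Ccl5, an inflammatory chemokine gene, went from 16209, 15758 and 16044 to 1395, 1481 and 1610 (-3.42 ± 0.05, adjusted p = 4.36e-17). In none of these did a library of one genotype reach the range of the other. Ccl4, another inflammatory chemokine gene, was 14116 ± 526 in cPLA2 WT and 3779 ± 96.8 in cPLA2 KO (SD, n = 3, log2 fold change -1.90).

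Ccr7 held 33397, 32199 and 33237 normalized counts in confined cPLA2 WT libraries and 8907, 8891 and 8957 in confined cPLA2 KO libraries. The ranges were far apart and narrow, and the log2 fold change was -1.88 ± 0.04 (SE, adjusted p = 1.26e-15). The nonconfined means were 15884 in cPLA2 WT and 16451 in cPLA2 KO, so that the confined cPLA2 KO level lay below these means and the confined cPLA2 WT level above them. Here and below, confined and nonconfined levels are set side by side without a test. Of 14 chemokine receptor genes tested, 7 were lower, 1 was higher, and the median was -1.03. The lower ones included Cxcr5, the receptor for the B cell follicle chemokine CXCL13 (269 ± 43.6 against 34.7 ± 20.4, SD, n = 3, log2 fold change -3.09), and Ccrl2, an atypical receptor that presents chemerin (8190 ± 327 against 990.1 ± 68.8, -3.05). Cxcr2, a receptor of neutrophils, was the gene called higher, at 363, 364 and 391 normalized counts in cPLA2 WT and 929, 778 and 916 in cPLA2 KO (1.22 ± 0.08, adjusted p = 7.03e-09).

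Of 33 cytokine genes tested, 20 were lower and 1 was higher (median -1.52). Il12b encodes the subunit shared by IL-12 and IL-23, and it held 27234, 25842 and 26344 normalized counts in cPLA2 WT and 391, 377 and 299 in cPLA2 KO (log2 fold change -6.22 ± 0.08, SE, adjusted p = 6.24e-18). Il23a, the second subunit of IL-23, held 807, 763 and 746 against 20.5, 5.33 and 9.11 (-6.12 ± 0.32). Il10, an anti-inflammatory cytokine, held 1466, 1454 and 1558 against 18.3, 16 and 9.11 (-6.64 ± 0.20, adjusted p = 2.37e-13). No library of either genotype reached the range of the other in these genes. Il6 was at 13389, 12713 and 12474 in cPLA2 WT and at 296, 307 and 267 in cPLA2 KO (-5.47 ± 0.06). Csf3, which encodes the granulocyte colony-stimulating factor, was at 7260, 6701 and 6676 against 147, 162 and 178 (-5.40 ± 0.07). Il27, whose product the study counts among stimulatory cytokines, was at 496 ± 46.5 against 53.3 ± 12.6 (-3.21). Il15, which sustains natural killer and memory T cells, was at 547 ± 15.8 against 150.2 ± 8.65 (SD, n = 3, -1.86, adjusted p = 3.06e-10).

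**Figure D2:**
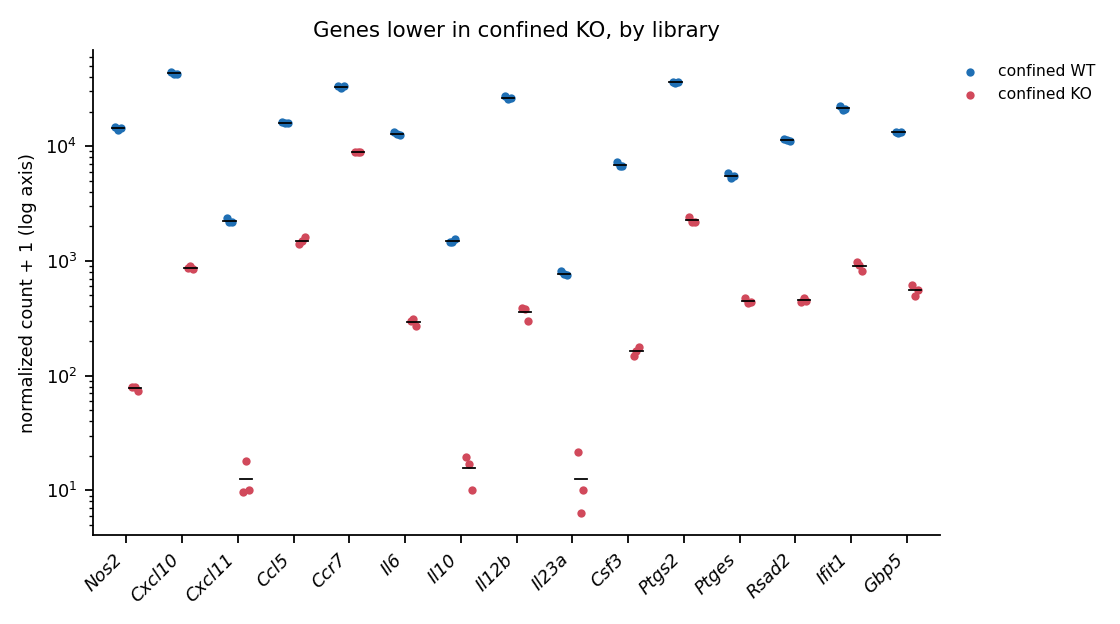
Normalized counts plus 1 (y axis, log scale) of 15 genes lower in cPLA2 KO in each confined library, blue for cPLA2 WT and red for cPLA2 KO, with a bar at the mean of 3 libraries. No cPLA2 KO library reaches a cPLA2 WT library in any of them, and the gap is smallest for Ccr7 and largest for Nos2 and Cxcl11.

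Before the interferon and NF-kB genes are described, the promoters of 5 of the lower genes are shown, because they carry the sequence motifs to which the factors of these pathways bind. Each line gives the 250 bases upstream of the start of the GENCODE canonical transcript in GRCm39, the build of the deposited coordinates, on the strand of the gene. Capitals mark a match on either strand to the core of the interferon-stimulated response element (ISRE, written GAAA, any 2 bases, GAAA) or to an NF-kB motif (GGGA, any 2 bases, TTCC).
Cxcl10 (chr5:92496749-92496998, minus strand): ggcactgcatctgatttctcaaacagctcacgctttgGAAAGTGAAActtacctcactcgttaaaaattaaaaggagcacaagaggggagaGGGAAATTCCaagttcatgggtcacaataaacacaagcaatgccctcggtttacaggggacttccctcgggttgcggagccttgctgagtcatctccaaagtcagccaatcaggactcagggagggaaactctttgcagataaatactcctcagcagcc
Rsad2 (chr12:26506452-26506701, minus strand): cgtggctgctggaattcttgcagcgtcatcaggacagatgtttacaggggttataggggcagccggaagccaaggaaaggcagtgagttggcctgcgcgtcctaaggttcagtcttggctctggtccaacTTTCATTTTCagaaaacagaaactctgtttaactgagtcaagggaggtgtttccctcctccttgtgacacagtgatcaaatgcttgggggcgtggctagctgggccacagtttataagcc
Ifit1 (chr19:34618021-34618270, plus strand): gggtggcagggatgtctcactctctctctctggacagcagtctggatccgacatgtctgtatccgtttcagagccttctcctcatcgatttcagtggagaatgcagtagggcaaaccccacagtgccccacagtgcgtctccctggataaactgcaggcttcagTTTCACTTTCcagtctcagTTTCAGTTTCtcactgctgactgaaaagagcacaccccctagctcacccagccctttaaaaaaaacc
Il6 (chr5:30217862-30218111, plus strand): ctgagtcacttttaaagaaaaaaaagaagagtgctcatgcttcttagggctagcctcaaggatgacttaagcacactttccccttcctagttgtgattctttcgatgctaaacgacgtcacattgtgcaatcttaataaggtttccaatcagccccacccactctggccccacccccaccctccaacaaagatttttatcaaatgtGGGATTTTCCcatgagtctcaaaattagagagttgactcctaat
Ccl5 (chr11:83421346-83421595, minus strand): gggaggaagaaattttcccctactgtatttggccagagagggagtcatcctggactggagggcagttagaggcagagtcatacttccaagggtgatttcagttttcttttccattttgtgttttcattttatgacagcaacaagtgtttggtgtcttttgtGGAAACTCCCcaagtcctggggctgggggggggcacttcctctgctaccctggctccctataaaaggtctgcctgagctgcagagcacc

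Cxcl10 carries both motifs, with the ISRE core 213 bases and the NF-kB motif 159 bases upstream of the start. Ifit1 carries the ISRE core at 86 and 67 bases, Rsad2 carries it at 120 bases, and the NF-kB motif lies 44 bases upstream of Il6 and 89 bases upstream of Ccl5. In windows of 250 bases before to 50 bases after the start, 9.20% of 967 promoters of lower genes held the ISRE core, as did 2.07% of 290 promoters of higher genes, 3.57% of 12648 promoters of genes tested and 4.31% of 75632 promoters in the annotation. For the NF-kB motif the shares were 4.24%, 1.03%, 1.68% and 1.30% in the same order. The STAT motif TTCNNNGAA was found in 8.79%, 6.55%, 7.61% and 8.94%, and the cAMP response element TGACGTCA in 3.41%, 0.690%, 3.12% and 1.29%. Among 173 promoters of genes lower by more than 3 on the log2 scale, 12.7% held the ISRE core, 8.67% the NF-kB motif, 11.6% the STAT motif and 2.31% the cAMP response element. These shares describe letters in a window and were not tested.

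Interferon-stimulated genes encode the antiviral proteins that cells make in answer to interferons. Of 74 tested, 58 were lower and none was higher by the call, the median was -2.05, and 71 were lower by the adjusted p alone against 3 higher. Part of this list was named by the study from these libraries, which is why its direction is not independent evidence. Rsad2, which encodes viperin, held 11593, 11202 and 11191 normalized counts in cPLA2 WT and 438, 472 and 444 in cPLA2 KO (log2 fold change -4.65 ± 0.05, SE, adjusted p = 1.16e-18). Ifit1, which encodes a protein that binds viral RNA, held 22292, 20656 and 21168 against 972, 912 and 812 (-4.57 ± 0.06). Both genes were separate between the genotypes by a wide margin. In the ISRE search above, 47.2% of 72 promoters of this list held the core.

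The guanylate-binding proteins and immunity-related GTPases, which attack vacuoles of intracellular pathogens, had the lowest median of all lists at -2.79. Of 18 tested, 16 were lower, and all 18 were lower by the adjusted p alone. Gbp5 held 13206, 13086 and 13189 normalized counts in cPLA2 WT and 611, 493 and 561 in cPLA2 KO (log2 fold change -4.57 ± 0.06, adjusted p = 2.35e-17). Tgtp1 held 914, 874 and 823 against 25.9, 37.3 and 36.5 (-4.69 ± 0.15), and because it has a near-identical neighbour its reads may be split between the copies. The families of this list and of the Ifit and H2-Q genes hold close copies, which adds uncertainty to the value of each copy.

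The receptors and factors that carry the interferon signal were lower by smaller amounts. Of 28 interferon receptor, JAK, STAT and IRF genes tested, 13 were lower, none was higher, and the median was -0.88. Socs3, a feedback inhibitor of cytokine receptors, went from 39834 ± 1421 to 5751 ± 184 (SD, n = 3, -2.79). Stat4 was at 5329 ± 145 against 983 ± 56.5 (-2.44), Stat5a at 12145 ± 459 against 3743 ± 182 (-1.70), Stat3 at 15785 ± 272 against 5539 ± 296 (-1.51), and Irf1 at 4158 ± 105 against 1437 ± 143 (-1.54, adjusted p = 1.12e-11). Irf4, which drives the development of a DC subset, was at 4938 ± 209 against 2255 ± 112 (-1.13). All of these were called, and their libraries did not overlap.

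NF-kB is held in the cytoplasm by inhibitors that the IKK complex marks for destruction. Of 35 genes of subunits, inhibitors and kinases tested, 15 were lower, none was higher, the median was -0.79, and 30 were lower by the adjusted p alone. The strongest were feedback genes that NF-kB itself induces. Nfkbiz, which encodes the nuclear regulator IkB-zeta, held 16332, 16112 and 16025 normalized counts in cPLA2 WT and 1000, 1025 and 969.6 in cPLA2 KO (-4.02 ± 0.04, adjusted p = 1.16e-18). Tnfaip3, which encodes the inhibitor A20, held 24004, 23406 and 23736 against 2447, 2492 and 2639 (-3.23 ± 0.04). Ikbkb, the gene of the kinase IKK-beta, differed by less, with 4508, 4380 and 4394 against 3245, 3118 and 3176, and its log2 fold change of -0.48 ± 0.04 (adjusted p = 1.38e-07) was below the limit of a call. Of 24 genes of the AP-1, EGR and NR4A factors, 8 were lower and none higher (median -0.66). They included Batf2 (1096 ± 121 against 145 ± 6.72, -2.90), Batf (462 ± 18.7 against 149 ± 10.1, -1.62) and Batf3, which cDC1 cells need (492 ± 90.4 against 219 ± 9.41, -1.15).

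Of 22 genes of MHC class I antigen presentation tested, 5 were lower and 18 were lower by the adjusted p alone (median -0.47). Tap1, which encodes a subunit of the peptide transporter, held 10994, 10421 and 10566 normalized counts in cPLA2 WT and 4115, 3715 and 4184 in cPLA2 KO (-1.41 ± 0.05, adjusted p = 1.06e-12). H2-Q7 was at 1143 ± 42.7 against 329 ± 10.6 (-1.79). Of 15 class II genes, 1 was lower, near the 7.44% of all genes, and the median was 0.03. By the adjusted p alone 3 were higher and 2 lower, where 22.0% and 23.4% of all genes were. However, 11 were higher when the libraries had the same total. The gene called was H2-Eb2, at 295 ± 17.4 against 92.2 ± 7.92 (SD, n = 3, -1.67).

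Co-stimulatory and co-inhibitory ligands set the outcome of contact with T cells, and 14 of the 21 genes tested were lower and 1 was higher (median -1.42). Cd80 held 8800, 8789 and 8697 normalized counts in cPLA2 WT and 3408, 3169 and 3255 in cPLA2 KO (-1.42 ± 0.04, adjusted p = 1.71e-13). Cd86 held 8168, 8350 and 8241 against 4115, 4077 and 4053 (-1.02 ± 0.04). The groups did not overlap for either of these ligands of CD28, and the ligands of the TNF family named here had larger fold changes. Tnfsf15 went from 8738 ± 154 to 268 ± 29.7 (SD, n = 3, -5.03 ± 0.07, adjusted p = 2.19e-17) and Tnfsf9, which encodes the ligand of 4-1BB, from 5099 ± 85.5 to 482 ± 34.6 (-3.40). The gene called higher was Vsir, which encodes the inhibitory molecule VISTA, at 2798, 2699 and 2715 in cPLA2 WT and 5848, 5520 and 5529 in cPLA2 KO (1.04 ± 0.04, adjusted p = 1.32e-11).

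Of 34 genes known from mature and migratory DCs, 17 were lower and none was higher by the call (median -1.08), and 30 were lower and 2 higher by the adjusted p alone. Marcksl1, an actin-regulating gene of mature DCs, held 40617, 37015 and 38289 normalized counts in cPLA2 WT and 7109, 6877 and 6897 in cPLA2 KO (-2.47 ± 0.04, adjusted p = 2.21e-16). Ccr7 and Ccl5, given above, also belong to this list. Of 18 markers of DC identity, 3 were lower, among them Batf3 and Irf4, and none was higher by the call. The median of the identity list was -0.07, and it became 0.08 with the same total per library.

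**Figure D3:**
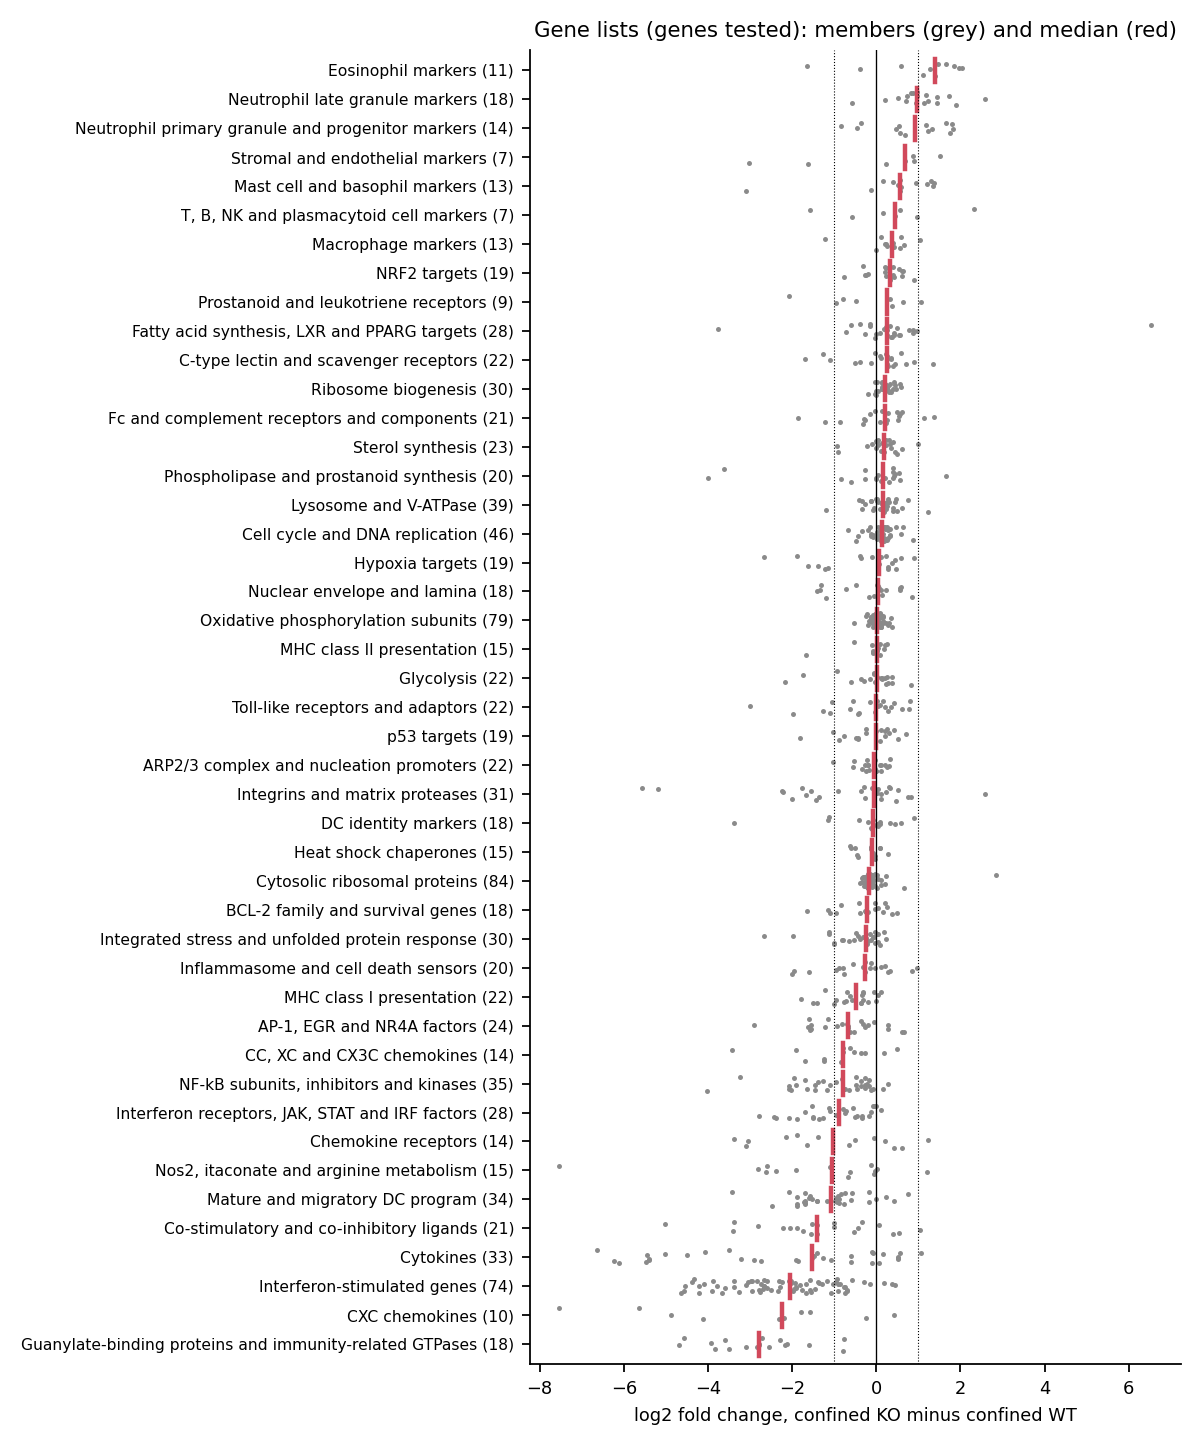
Log2 fold change (x axis, confined cPLA2 KO minus confined cPLA2 WT) of the genes tested in 45 lists (rows, number tested in parentheses), with a grey point per gene, a red bar at the median and dotted lines at -1 and 1. The medians run from -2.79 for the guanylate-binding proteins to 1.41 for the eosinophil markers, and those of glycolysis, oxidative phosphorylation and the ribosomal proteins lie between -0.18 and 0.03.

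The genes of the pathway in which cPLA2 acts did not move as a block. Of 20 phospholipase and prostanoid synthesis genes tested, 2 were lower and 1 was higher, where 7.44% and 2.49% of all genes were. The median was 0.17, against 0.04 over all genes. By the adjusted p alone 5 were lower and 8 higher, where 23.4% and 22.0% of all genes were. The 2 lower genes, a share near that of all genes, encode enzymes at consecutive steps from arachidonic acid to prostaglandin E2. Ptgs2, the inducible cyclooxygenase, held 36417, 35339 and 36222 normalized counts in cPLA2 WT and 2387, 2180 and 2200 in cPLA2 KO (-4.00 ± 0.04, SE, adjusted p = 1.35e-18). Ptges, the microsomal prostaglandin E synthase, held 5788, 5302 and 5489 against 472, 432 and 440.2 (-3.62 ± 0.06). For both genes the groups were far apart, and the cPLA2 KO levels were above the nonconfined means, which were 81.9 and 81 for Ptgs2 and 86.5 and 140.3 for Ptges. Alox15, the 12/15-lipoxygenase that eosinophils also express, was higher, at 213, 237 and 212 in cPLA2 WT and 729, 659 and 688 in cPLA2 KO (1.65 ± 0.09, adjusted p = 3.83e-10). In nonconfined cells Alox15 was at 945 in cPLA2 WT and 2356 in cPLA2 KO.

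Receptors for these lipids were tested for 9 genes, of which 1 was called, and the median was 0.25. By the adjusted p alone 3 were lower and 3 higher, where 23.4% and 22.0% of all genes were. The 3 lower ones were Cysltr2, Ptger2 and Ptger4. Cysltr2, a receptor for cysteinyl leukotrienes, was at 222 ± 42.2 against 52.1 ± 10.2 (SD, n = 3, -2.07 ± 0.20, adjusted p = 4.23e-07). Ptger2 and Ptger4 encode the EP2 and EP4 receptors of prostaglandin E2. Ptger2 held 3896, 3567 and 3604 normalized counts in cPLA2 WT and 1874, 1994 and 1863 in cPLA2 KO (-0.95 ± 0.05, adjusted p = 3.07e-10). Ptger4 held 958, 952 and 877 against 539.5, 539.6 and 539 (-0.78 ± 0.07, adjusted p = 1.17e-07). Both were lower by the adjusted p without reaching the limit on the fold change, and neither group overlapped the other.

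Genes of the actin and nuclear machinery by which a cell meets confinement were examined next. Of 22 ARP2/3 complex and nucleation promoter genes, 1 was lower, where 7.44% of all genes were. By the adjusted p alone 8 were lower and 4 higher, where 23.4% and 22.0% of all genes were. With the same total per library these became 4 lower and 11 higher, and the median of -0.04 became 0.11. Actr2 held 42268, 41020 and 40078 normalized counts in cPLA2 WT and 37479, 34915 and 37152 in cPLA2 KO (-0.17 ± 0.04, adjusted p = 0.00313). Actr3 held 17934, 17190 and 17086 against 14558, 14563 and 15341 (-0.23 ± 0.04, adjusted p = 0.000178). These differences, though the libraries did not overlap, were of the size of the shift between the scalings. Cyfip1, a subunit of the WAVE complex, was the gene called, at 20218 ± 351 against 9968 ± 298 (SD, n = 3, -1.02).

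Of 18 nuclear envelope genes, 4 were lower, where 7.44% of all genes were. By the adjusted p alone 7 were lower and 5 higher, but 6 were lower and 10 higher with the same total per library. Among those called were Lmnb1, the gene of lamin B1 (12187 ± 477 against 4630 ± 165, -1.40 ± 0.04, adjusted p = 3.53e-13), and Syne2, a nesprin that ties the envelope to actin (3803 ± 718 against 1515 ± 388, -1.34 ± 0.15). Mylk, a myosin light chain kinase gene, held 1195, 1258 and 1257 normalized counts in cPLA2 WT and 209, 227 and 209.6 in cPLA2 KO (-2.52 ± 0.08). Of 31 integrin, adhesion and matrix protease genes, 10 were lower and 1 was higher. By the adjusted p alone 14 were lower and 8 higher, or 14 and 13 with the same total per library. Timp1, an inhibitor of matrix proteases, held 2701, 2597 and 2622 normalized counts in cPLA2 WT and 72.3, 77.8 and 66.5 in cPLA2 KO (-5.18 ± 0.09, adjusted p = 1.74e-16). Mmp9, a protease that TIMP1 inhibits and neutrophils store, was the gene called higher and is described with the neutrophil genes. Vcam1, an adhesion molecule, was at 186 ± 10.3 against 42 ± 18.7 (-2.24).

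Among innate receptors, 5 of 22 Toll-like receptor and adaptor genes were lower and none was higher (median 0.00). Cd14, the LPS co-receptor, was abundant, with 136116, 129232 and 129184 normalized counts in cPLA2 WT and 16689, 16090 and 16508 in cPLA2 KO (-3.00 ± 0.04, adjusted p = 1.37e-17). Tlr3, a sensor of viral RNA, was at 287 ± 14.3 against 73.4 ± 18.7 (-1.98). Of 22 C-type lectin and scavenger receptor genes, 3 were lower, including Clec4e, which encodes Mincle (18496 ± 398 against 5752 ± 145, -1.69), and Olr1 (3301 ± 72.1 against 1381 ± 33.5, -1.26). Marco, a scavenger receptor of macrophages, was higher, at 594, 561 and 499.9 against 1463, 1400 and 1361 (1.35 ± 0.07, adjusted p = 2.99e-10). Of 21 Fc and complement genes, 2 were lower, near the 7.44% of all genes, namely Cfb, which encodes complement factor B (2659 ± 112 against 727 ± 32.6, -1.87), and Fcgr1, a high-affinity IgG receptor gene (3293 ± 198 against 1424 ± 70.1, -1.21), and 2 were higher, including C5ar2 (326 ± 7.24 against 717 ± 50.4, 1.13). By the adjusted p alone the Toll-like receptor, lectin and Fc lists held 10, 6 and 4 lower and 7, 11 and 10 higher genes. With the same total per library these became 9, 5 and 4 lower and 10, 15 and 14 higher genes.

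Of 20 inflammasome and cell death sensor genes, 3 were lower, including Mefv, which encodes pyrin (1167 ± 63.3 against 292 ± 6.89, -1.99), and Casp4, which encodes the inflammatory caspase that senses LPS in the cytosol (4776 ± 119 against 1235 ± 52.9, -1.95). Of 18 BCL-2 family and survival genes, 3 were lower. They included Cflar, an inhibitor of caspase-8 (2290 ± 34.6 against 738 ± 52.6, -1.64), and Bcl2a1b (29602 ± 687 against 13462 ± 573, -1.14), which has close copies. Of 19 p53 target genes, 2 were lower, a share near the 7.44% of all genes, namely Gadd45a (2489 ± 85.3 against 706 ± 52.8, -1.82) and Fas (3664 ± 201 against 1790 ± 69.3, -1.03). None of these 3 lists held a gene called higher. By the adjusted p alone they held, in the same order, 13, 9 and 8 lower and 5, 4 and 7 higher genes. With the same total per library these became 11, 7 and 6 lower and 6, 7 and 10 higher genes.

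Lists of stress and metabolism held both called and uncalled genes. Of 30 genes of the integrated stress and unfolded protein responses, 5 were called lower. By the adjusted p alone 18 were lower and 2 higher, where 23.4% and 22.0% of all genes were. With the same total per library 14 were lower and 7 higher. Among those called were Ddit4, an inhibitor of mTORC1 (11163, 10107 and 10546 against 1610, 1720 and 1649, -2.67 ± 0.05, adjusted p = 4.23e-16), and Nupr1 (2721 ± 114 against 689 ± 19.2, -1.98). Of 19 hypoxia targets, 6 were called lower, including Ndrg1 (7526 ± 149 against 2060 ± 157, -1.87). By the adjusted p alone 8 were lower and 5 higher, but 7 were lower and 9 higher with the same total per library. Of 22 glycolysis genes, 2 were lower, again near the 7.44% of all genes, with 7 lower and 9 higher by the adjusted p alone. They were Pfkfb3 (6359 ± 173 against 1417 ± 106, -2.17) and Hk2 (9419 ± 206 against 2813 ± 154, -1.74), both of which bear on early steps. Of 28 fatty acid synthesis, LXR and PPARG target genes, 1 was called lower and 1 higher (median 0.25). Of all genes tested, 7.44% were called lower and 2.49% higher. By the adjusted p alone 7 were lower and 16 higher. The lower one called, Abca1, is a cholesterol exporter that LXR induces. It held 4513, 5032 and 4880 normalized counts in cPLA2 WT and 326, 361 and 376 in cPLA2 KO (-3.76 ± 0.07, limma, adjusted p = 3.47e-16). Abca1 was also lower in nonconfined cPLA2 KO cells (701 against 327, -1.12).

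No gene was called among 15 heat shock chaperones, 19 NRF2 targets, 23 sterol synthesis genes, 79 subunits of oxidative phosphorylation, 30 ribosome biogenesis genes and 46 cell cycle and DNA replication genes (limma). By the adjusted p alone these lists held, in the same order, 7, 5, 3, 9, 1 and 6 lower genes and 1, 13, 13, 6, 17 and 18 higher genes. Of all genes tested, 23.4% were lower and 22.0% higher on this measure. The subunits of oxidative phosphorylation had a median of 0.03, and their 6 higher genes became 58 with the same total per library. Of 84 ribosomal protein genes, 1 was called higher, at 2.86, and none lower. By the adjusted p alone 55 were lower and 2 higher, with a median of -0.18, but 6 were lower and 6 higher with the same total per library. The heat shock chaperones then held 5 lower and 5 higher genes, the ribosome biogenesis genes 0 and 28, and the cell cycle genes 3 and 35. Among the heat shock, ribosomal protein and oxidative phosphorylation lists, the first had a median that changed sign, from -0.11 to 0.05, while that of the ribosomal protein genes moved to -0.03 and that of the oxidative phosphorylation subunits to 0.18. Of 39 lysosomal genes, 1 was called lower and 1 higher, where 7.44% and 2.49% of all genes were. The lower one, Ctsc (19376 ± 274 against 8444 ± 329.6, -1.20), and the higher one, Ctsk (226 ± 16 against 536 ± 46.3, 1.24), both encode cathepsins. By the adjusted p alone 6 lysosomal genes were lower and 25 higher.

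At a mean of 100 normalized counts or more, the largest increases named were those of the Y chromosome genes Ddx3y and Eif2s3y. All 4 of the listed Y chromosome genes tested were called higher in cPLA2 KO. Ddx3y held 0, 1.72 and 2.37 normalized counts in cPLA2 WT and 1036, 920.2 and 948 in cPLA2 KO (log2 fold change 8.85 ± 0.38, SE, adjusted p = 1.8e-11). Eif2s3y had 2 reads in the 3 cPLA2 WT libraries together and 583, 650.5 and 665 normalized counts in cPLA2 KO, for a ratio of 966 (95% counting interval 267 to 7990). Both differed as much in nonconfined cells, where Ddx3y was at 1.67 against 935 and Eif2s3y at 0.568 against 604. On the Y chromosome, 5 of 7 genes tested were higher. On the X chromosome, 16 of 480 (3.33%) were higher and 17 (3.54%) lower, where 2.49% and 7.44% of all genes were.

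A pair of genes outside the sex chromosomes had a like pattern. Acot1, an acyl-CoA thioesterase, held 6.76, 5.15 and 4.74 normalized counts in cPLA2 WT and 588, 626 and 589 in cPLA2 KO (6.53 ± 0.22, adjusted p = 9.46e-13), with nonconfined means of 1.6 and 418. Lrmda held 18.4, 35.2 and 16.6 against 400.3, 389 and 396 (4.10 ± 0.24, adjusted p = 9.28e-10), with nonconfined means of 26.8 and 343. Neither difference was past the threshold for a change between confined and nonconfined cells (interaction -1.09 with adjusted p = 0.137, and 0.42 with adjusted p = 0.414).

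Many markers of neutrophils and eosinophils were higher in cPLA2 KO as well. Of 18 late neutrophil granule genes tested, 8 were higher and none was lower by the call (median 0.97), and 17 were higher by the adjusted p alone. Mmp9 held 369, 364 and 405 normalized counts in cPLA2 WT and 2524, 2093 and 2284 in cPLA2 KO (2.59 ± 0.07, adjusted p = 1.42e-13). Ly6g, a surface marker of neutrophils, held 219, 184 and 259 against 804, 814 and 818 (1.89 ± 0.11). In nonconfined cells both genes were higher in cPLA2 KO as well, with means of 913 and 3738 for Mmp9 and of 545 and 1101 for Ly6g. Ceacam10, which is not a member of this list and was named for the size of its increase, was at 386 ± 16.5 against 1449 ± 53.6 (SD, n = 3, 1.91).

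Of 14 primary granule and progenitor genes, 7 were higher and none was lower by the call (median 0.93). By the adjusted p alone 10 were higher and 3 lower. Elane, which encodes neutrophil elastase, held 141, 116 and 141 normalized counts in cPLA2 WT and 504, 447 and 467 in cPLA2 KO (1.83 ± 0.12, adjusted p = 2.7e-09), and Ms4a3, a gene of granulocyte-monocyte progenitors, held 224, 185 and 141 against 605, 609.9 and 694 (1.81 ± 0.14). The nonconfined means did not show this order, at 968 in cPLA2 WT and 848 in cPLA2 KO for Elane and at 1198 and 1104 for Ms4a3. The sum over the 14 genes went the other way, from 54600 to 57610 in cPLA2 WT and from 36430 to 37550 in cPLA2 KO, because it is dominated by Srgn (50482 against 28336), a gene that many blood cells express and that was named after its values were seen.

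Of 11 eosinophil markers, 8 were higher and 1 was lower (median 1.41). Ear1, an eosinophil ribonuclease gene with close copies, held 467, 499 and 505 normalized counts in cPLA2 WT and 1857, 1886 and 2042 in cPLA2 KO (1.97 ± 0.06, adjusted p = 5.31e-13). Ccr3, the eotaxin receptor, was the lower one, at 207, 189.5 and 173 against 75.5, 42.7 and 65.6 (-1.65 ± 0.21, adjusted p = 7.51e-06). The members of this list therefore did not all differ in 1 direction. The summed level of 9 eosinophil markers was 19910 to 21640 in confined cPLA2 WT and 36000 to 38150 in confined cPLA2 KO, against 59900 to 61180 and 102700 to 110400 in nonconfined cells.

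Of 13 mast cell and basophil genes, 4 were higher, including Mcpt8, a protease of basophils (559 ± 38.9 against 1377 ± 31.4, 1.30), and Ms4a2, a chain of the IgE receptor (90.8 ± 18.9 against 231 ± 20.4, 1.35). Hdc, which makes histamine and is also induced in other myeloid cells, was lower, at 12596, 12068 and 12444 against 1497, 1437 and 1440 (-3.08 ± 0.04, adjusted p = 1.82e-17). The sum over 15 genes of this list, of which Hdc is the largest part in cPLA2 WT, was 19910 to 20720 in cPLA2 WT and 14470 to 14910 in cPLA2 KO, opposite to most of its called members. Of the mast cell genes, Mcpt4 and Tpsab1 were at 0 in all confined libraries. Of 13 macrophage markers, 1 was higher, Maf (249.5 ± 22.5 against 510.4 ± 35.5, 1.03), and 1 was lower, Fcgr1. Of all genes tested, 2.49% were called higher and 7.44% lower. By the adjusted p alone 8 macrophage markers were higher and 1 lower, where 22.0% and 23.4% of all genes were. In the list of T, B, NK and plasmacytoid cells, with a summed level of 12240 to 12590 in cPLA2 WT and 8482 to 9031 in cPLA2 KO, 1 of 7 genes tested was higher and 1 lower, the latter being Tcf4 (799 ± 6.37 against 269.8 ± 16.2, -1.56). In the stromal and endothelial list, summed at 2397 to 2452 and 2995 to 3012, 1 of 7 was higher and 2 were lower, including Kdr (226 ± 19 against 72.6 ± 9.24, -1.63). The part of cell composition in the differences above was not tested.

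The other genes among the 15 largest increases named, at a mean of 100 normalized counts or more, belong to no list. Outside this limit other genes had larger increases, as 26 of the 406 higher genes were above 3. Tchh and Krt83, which encode proteins of the hair follicle, were at 49.8 ± 15.2 against 232 ± 6.9 (2.24) and at 68.6 ± 26.7 against 258 ± 44.4 (1.97). Nat8l, which makes N-acetylaspartate, was at 48.8 ± 8.5 against 223 ± 15 (2.18). Ehf, an epithelial transcription factor of the ETS family, was at 80.6 ± 20.6 against 340.4 ± 13 (SD, n = 3, 2.09), and the noncoding 2610035D17Rik at 57.6 ± 9.81 against 208 ± 7.5 (1.85). Of the 406 higher genes, 137 reached a mean of 100 normalized counts, while 704 of the 1212 lower genes did. Among the higher genes 91 carry no symbol, as do 215 of the lower ones.

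**Figure D4:**
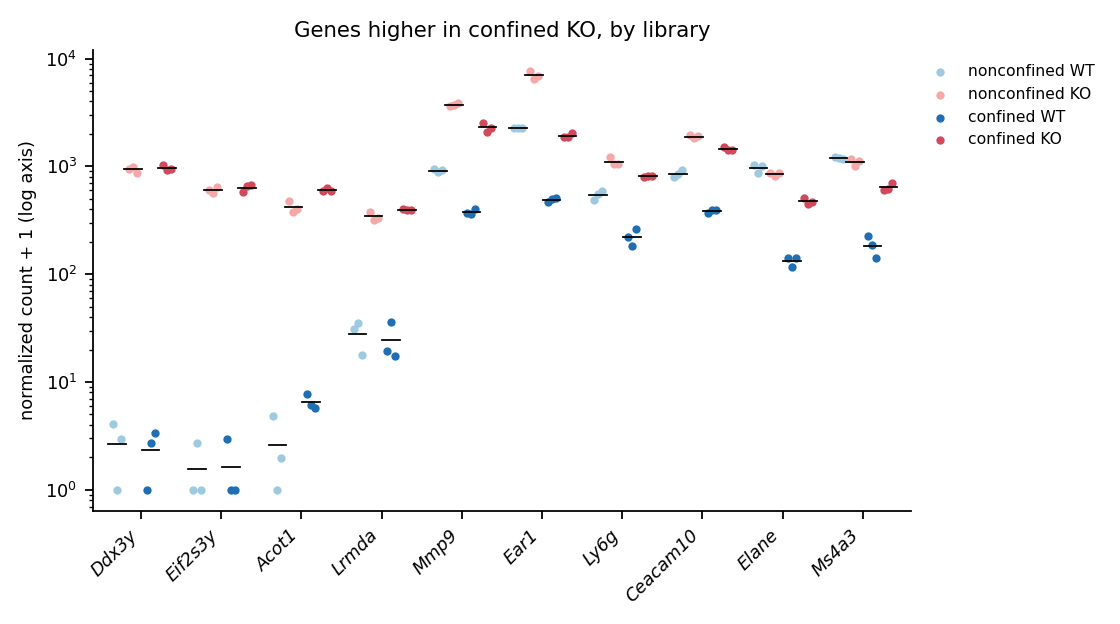
Normalized counts plus 1 (y axis, log scale) of 10 genes higher in confined cPLA2 KO in each library of the nonconfined (pale) and confined (dark) groups, blue for cPLA2 WT and red for cPLA2 KO, with a bar at the mean of 3 libraries. The Y chromosome genes, Acot1 and Lrmda differ between the genotypes in both conditions, whereas for Elane and Ms4a3 the gap is seen in the confined libraries.

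To see which differences were already there before confinement, the same genotype comparison was made in nonconfined cells, whose libraries are not shared with the confined comparison. Of 15661 genes tested there, 55 were lower (0.351%) and 166 higher (1.06%). Of the 1212 genes lower in confined cPLA2 KO, 951 were tested in nonconfined cells, and 15 of them were called lower and 28 higher. Their median log2 fold change in nonconfined cells was -0.02. Of the 406 higher genes, 383 were tested, and 56 were called higher and 1 lower (median 0.41). The difference itself was tested by the interaction of genotype and confinement over 17255 genes in 12 libraries. The interaction was past the threshold in the negative direction in 1106 genes (6.41%) and in the positive direction in 274 (1.59%). With the same total per library the split was 927 negative and 596 positive. Of the genes lower in confined cPLA2 KO, 920 (75.9%) were among the former, and of those higher, 119 (29.3%) were among the latter. These shares use the confined libraries on both sides and describe the lists only.

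**Figure D5:**
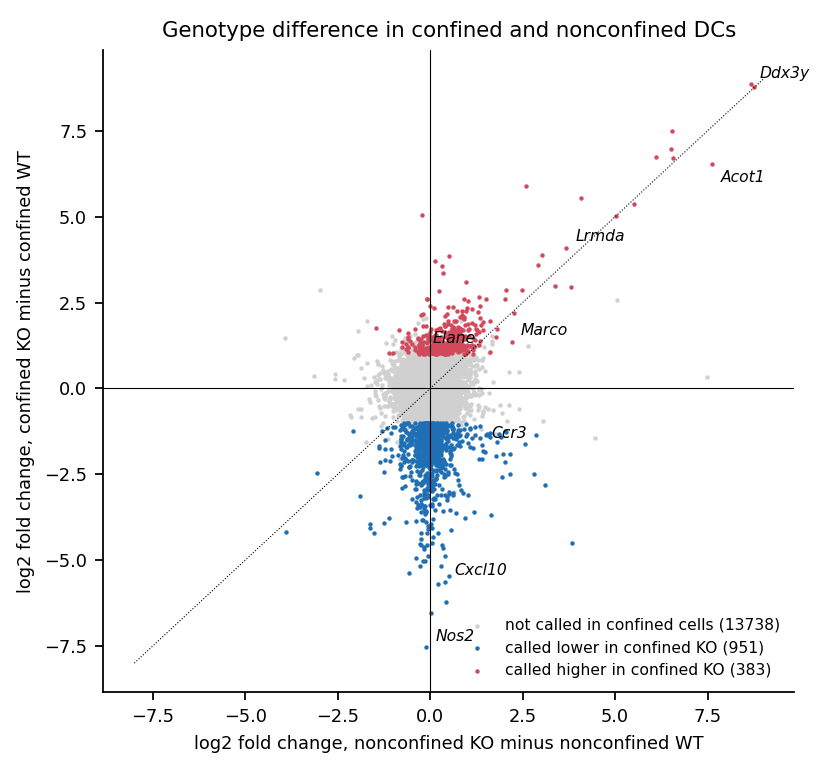
Log2 fold change between the genotypes in confined cells (y axis) against that in nonconfined cells (x axis) for genes tested in both, with a dotted line at equal values, 951 genes called lower (blue) and 383 called higher (red) in confined cPLA2 KO. The blue points spread down a column near 0 on the x axis, with a nonconfined median of -0.02, while the red points that are furthest from 0, such as Ddx3y and Acot1, lie near the line.

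Single genes show both patterns. Ccr7 differed by -1.88 in confined and by 0.05 in nonconfined cells (interaction -1.93, adjusted p = 1.65e-16), and Nos2 by -7.54 and -0.11 (interaction -7.43, adjusted p = 3.13e-14). Ptgs2 differed by -4.00 and -0.03 (interaction -3.97, adjusted p = 3.5e-16). For Pla2g4a the values were -0.60 and -0.41, and the interaction of -0.20 was not past the threshold (adjusted p = 0.116). Marco was higher in cPLA2 KO in both conditions, by 1.35 and 2.21, with an interaction of -0.86 (adjusted p = 1.19e-05). Lmnb1 and Abca1 were lower in both, by -1.40 and -0.25 for Lmnb1 (interaction -1.14) and by -3.76 and -1.12 for Abca1 (interaction -2.64, adjusted p = 6.65e-12).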

How the data were processed

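Bulk RNA was sequenced by the authors from polyadenylated RNA in stranded libraries. Per the labels and the study's methods, reads were mapped with STAR 2.7.5a to mm39 (GRCm39), counted with featureCounts 1.5.0 on Mouse FAST DB and divided by DESeq2 size factors. The deposited signal values are these normalized counts, with no scaling for length. Whole reads were recovered from the steps of the values, and 100% came out whole with a tolerance of 1e-06. Intervals on reads cover counting error only.

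For the tests, a pseudocount of 1 was added to each normalized count, log2 was taken, and limma 3.58.1 was run under R 4.3.3 (lmFit, eBayes with trend) on the 6 confined libraries, a mean per genotype and no other term, with Benjamini-Hochberg adjustment over all genes tested. The interaction used 12 libraries. Named were the 15 largest changes each way among called genes that reach a mean of 100 and do not overlap, up to 2 per list and direction, and the genes the study names for these cells, except for items that are not reported here. The gene lists and this rule were chosen with earlier results of these data known. The authors' intergenic filter was not repeated. Alternatives were other pseudocounts, filters, scalings, thresholds, a fit of all 18 libraries, a replicate block, edgeR 4.0.16, DESeq2 1.42.0 and each library left out. Promoters came from GRCm39 and GENCODE, with a canonical transcript for 12648 of the genes tested.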

Additional observations from a re-analysis of the deposited data

Results flagged for a closer look

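The difference between the genotypes was itself different in confined and nonconfined cells, by the interaction test, in 1106 genes with a lower value and in 274 genes with a higher value in confined cells (limma, adjusted p under 0.05 and an absolute interaction above 1). With the same total per library these counts were 927 and 596. Among the named genes, 16 were lower in confined cPLA2 KO and higher in nonconfined cPLA2 KO cells, each past an adjusted p of 0.05. Their interaction on the log2 scale was -6.66 for Il12b, -6.04 for Cxcl10, -4.99 for Rsad2, -4.89 for Ifit1, -4.32 for Ptges, -3.66 for Ccrl2, -3.58 for Hdc, -3.06 for Ccr3, -2.72 for Stat4, -2.41 for Cfb, -2.37 for Gadd45a, -2.26 for Casp4, -2.08 for Clec4e, -1.42 for Fas, -1.37 for Cd86 and -1.25 for Ptger2. The log2 fold changes in nonconfined cells ran from 0.28 for Stat4 to 1.41 for Ccr3. Cxcl10 went from a mean of 434 to 574 normalized counts there and Ccr3 from 85.4 to 229.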

How the results depend on the processing

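The counts of 406 higher and 1212 lower genes stayed within 1.5 times under pseudocounts of 0.5 and 5, no filter, TMM scaling, a fit of all 18 libraries, edgeR (386 and 1208) and DESeq2 (363 and 1234). They moved to 162 and 750 with a minimum of 100 normalized counts, under which fewer genes are tested. The higher count moved to 643 with the same total per library. With the limits of the methods (unadjusted p of 0.05, fold change of 1.5) the counts were 1233 and 1941, and with the adjusted p alone 3586 and 3812. Leaving out each library in turn gave 339 to 429 higher and 1106 to 1216 lower genes, and 1257 to 1403 genes with an interaction, whose main count was 1380 (1106 negative, 274 positive) and which was 1523 (927 negative, 596 positive) with the same total per library. Residuals of same-numbered confined libraries correlated at 0.42, 0.285 and 0.0501, and cPLA2 WT library 3 correlated better with cPLA2 KO library 2 (0.218). Library 1 of each genotype correlated negatively with libraries 2 and 3 of the other (-0.393 to -0.0928). These values do not settle whether equal numbers are pairs. The labels state no pairs, so the main test used none. With a replicate block, 461 genes were higher, 1252 lower and 1435 had an interaction. Over the named genes and alternatives, 1770 outcomes kept their direction and their side of an adjusted p of 0.05. In 3 others the adjusted p fell under 0.05, and in 2 it no longer did. Counts of list members stayed within 1.5 times in 1543 outcomes and moved further in 149. Of the named genes, only the log2 fold change of Itgax changed sign, with the same total per library (0.0543). The cause was not tested. Depth limits mainly the genes near 0 in a genotype, such as Steap4 and Eif2s3y.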
